A study of Mus musculus with 39 samples.

Results

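The comparison described here was the addition of Activin A to Wnt3a at day 5. It set 3 arrays of mouse embryonic stem cells (ESCs) given Activin A plus Wnt3a against 3 arrays of ESCs given Wnt3a, which were 6 of the 39 arrays of the series, and each array was taken by the group in its sample title. All cells of both groups had the same start: a mouse ESC line grown on feeder fibroblasts with LIF, freed of feeders by a short plating on gelatin and seeded on collagen, and treated from the next day in a differentiation medium with B27 and sodium butyrate. Both groups then received 50 ng/ml Wnt3a for 5 days, and one of them also received 100 ng/ml Activin A. No genetic change distinguished the groups, and the labels do not say whether the replicates were separate cultures, so p-values measure the spread between these arrays, which may be technical. The series also holds undifferentiated ESCs, controls without growth factors, Activin A alone and earlier days. Of these, the 3 control and 3 Activin A arrays of day 5 entered the fit with the 6 arrays to estimate the spread. The question was which miRNAs differed when Activin A was added to cells that already received Wnt3a.

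Each 1-colour Agilent array held 611 mouse miRNAs, of which at most 366 were detected on any of the 6 arrays, with a median background of 35 to 37 and 0 saturated spots. Wnt3a replicate 1 stood apart: over the 260 miRNAs detected on all 12 arrays of day 5, its root mean square distance from its 2 replicates was 1.24 on the log2 scale, against 0.81 and 0.68 for the other Wnt3a arrays and 0.16 to 0.38 for the other 9. Results are therefore given with and without it. The fit used 1 spread per miRNA for all 12 arrays of day 5. Since the Wnt3a arrays varied more than the others, its SEs and p-values can be too small for this comparison. The 6 arrays shared 1 slide, but the Wnt3a arrays lay in row 1 of that slide and the Activin A plus Wnt3a arrays in row 2, so slide row and treatment cannot be told apart. In rank order, the scanner values of the 3 Activin A plus Wnt3a arrays matched series matrix columns named Activin A best, and the reverse. The 2 sources thus disagree on which arrays got both factors. The scanner values were used under their own labels. With the arrays labelled Activin A in place of those labelled Activin A plus Wnt3a, 82 of 358 miRNAs passed the same threshold.

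Activin A is a ligand of the TGF-beta superfamily that signals through SMAD2 and SMAD3 and drives ESCs towards mesendoderm and definitive endoderm, and Wnt3a acts through beta-catenin and promotes the same early step. A miRNA is a short RNA that represses messenger RNAs which pair with its seed, the bases 2 to 8 from its 5′ end, so miRNAs with the same seed share many targets. In early mouse cells, the cluster of miR-290 to miR-295 marks naive pluripotent cells and the cluster of miR-302 and miR-367 the primed epiblast, the miR-200 family marks epithelial cells, and miR-124 and miR-9 mark neural cells.

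Mature sequences of the miRNAs that carry the comparison are shown first, because families that share a seed moved together in some cases and apart in others. They are from a collection of RefSeq sequences for mouse build GRCm38.p6, and the seed is in capitals. The collection held a mature sequence for 44 of 50 miRNAs looked up. A miRNA missing from it may still be in RefSeq. The first set was higher with Activin A and carries the seed AAGUGCU, or in miR-302c the same letters shifted by 1 base.
miR-302b: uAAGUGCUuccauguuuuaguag
miR-302c: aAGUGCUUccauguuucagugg
miR-302d: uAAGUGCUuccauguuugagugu
miR-291a-3p: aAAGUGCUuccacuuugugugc
miR-294: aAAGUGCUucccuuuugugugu
miR-295: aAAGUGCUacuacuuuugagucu
miR-17 and miR-20a hold the same 6 letters AAGUGC 1 base further in, and were lower with Activin A.
miR-17: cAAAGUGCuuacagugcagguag
miR-20a: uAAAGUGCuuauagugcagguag
The miR-200 family has a pair of seeds that differ in 1 letter, and all its members were higher.
miR-200a: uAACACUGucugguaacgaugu
miR-141: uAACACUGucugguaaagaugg
miR-200b: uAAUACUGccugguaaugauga
miR-200c: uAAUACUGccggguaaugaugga
miR-429: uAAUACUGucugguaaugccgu
The families of miR-99 with miR-100 and of miR-125 each split, with miR-99a, miR-100 and miR-125b-5p lower and miR-99b and miR-125a-5p higher.
miR-99a: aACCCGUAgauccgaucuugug
miR-100: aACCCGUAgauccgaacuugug
miR-99b: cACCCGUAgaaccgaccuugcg
miR-125b-5p: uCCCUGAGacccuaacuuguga
miR-125a-5p: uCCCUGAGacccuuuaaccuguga
let-7e: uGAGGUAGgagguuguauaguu
The next set shows the miR-196 pair, which was higher, beside miR-10a and the miR-181 members, of which miR-10a, miR-181a and miR-181b were lower.
miR-196a: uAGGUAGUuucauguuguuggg
miR-196b: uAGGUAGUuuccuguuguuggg
miR-10a: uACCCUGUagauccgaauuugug
miR-181a: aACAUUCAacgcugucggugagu
miR-181b: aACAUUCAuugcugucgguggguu
miR-181c: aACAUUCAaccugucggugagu
miR-181d: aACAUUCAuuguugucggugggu
The last set holds neural miRNAs that were lower, without miR-124, whose sequence the collection lacked. It also holds members of the group of miR-23, miR-27 and miR-24, which were higher.
miR-9: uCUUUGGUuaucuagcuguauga
miR-9*: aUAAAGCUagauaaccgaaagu
miR-219: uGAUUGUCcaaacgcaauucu
miR-153: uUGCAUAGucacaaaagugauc
miR-27a: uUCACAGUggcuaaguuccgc
miR-27b: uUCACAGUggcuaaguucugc
miR-24: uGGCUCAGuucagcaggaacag
Several of these are near copies: miR-99a and miR-100 differ at 1 of 22 bases, as do miR-196a and miR-196b, and miR-27a and miR-27b at 1 of 21, so how far their probes separate them on the array was not tested.

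Of 350 miRNAs tested, 89 (25.4%) passed a limma adjusted p under 0.05 by Benjamini-Hochberg with a more than 2-fold difference, and these are called higher or lower below. Of the 89, 51 (14.6% of those tested) were higher and 38 (10.9%) were lower with Activin A. The groups did not overlap in 86 of the 89, against 157 of all 350 (44.9%). On the adjusted p alone, 147 of 350 (42.0%) passed, and over all 350 the median log2 difference was -0.043. Fitted on the 6 arrays alone, 64 miRNAs (18.3%) were called. Without Wnt3a replicate 1, 91 of 346 miRNAs (26.3%) were called, 52 higher (15.0%) and 39 lower (11.3%), and 73 of these were among the 89, all in the same direction. The 6 arrays alone then gave 86 (24.9%). The split of the calls moved with the scaling: higher miRNAs made up 57.3% of the calls after quantile normalization and 31.2% after scaling to the 75th percentile of miRNAs detected on all arrays, which gave a median difference over all tested of -0.37 in place of -0.043. In these cultures, fewer cells of a type and less of a miRNA per cell cannot be told apart.

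**Figure D1:**
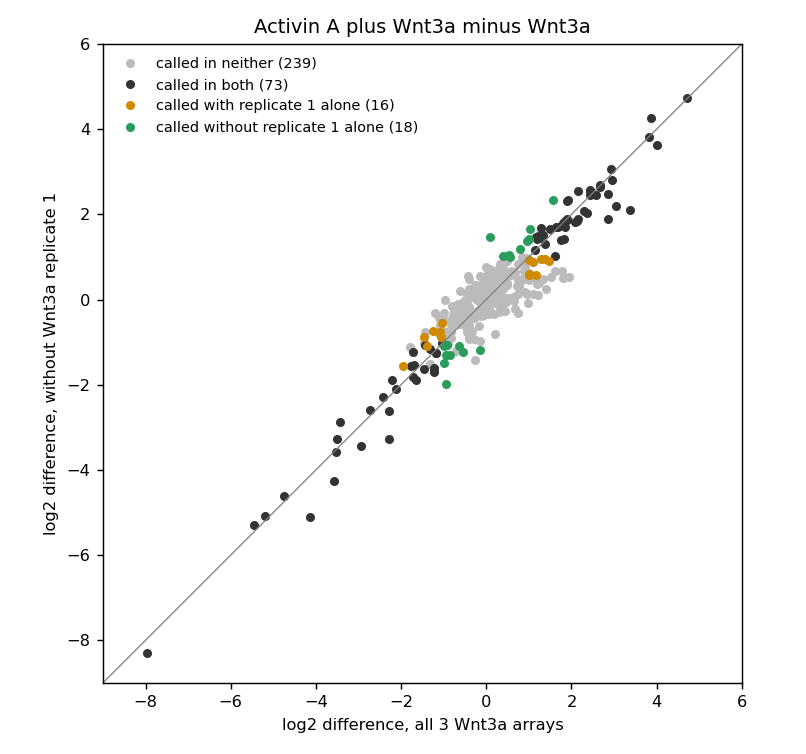
Log2 difference of Activin A plus Wnt3a minus Wnt3a for each tested miRNA with all 3 Wnt3a arrays (x axis) and without Wnt3a replicate 1 (y axis), coloured by the call under each. The line marks equal values, and 73 miRNAs were called both ways, 16 with replicate 1 alone and 18 without it alone.

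Members of the clusters of pluripotent and epiblast cells were higher with Activin A. In the cluster of miR-302 and miR-367 all 6 tested members of 8 on the array were higher (100%, against 14.6% of all tested). Their median log2 difference was 2.55 (2.34 without Wnt3a replicate 1). The remaining members, miR-302b* and miR-302c*, were detected on 1 array each. Normalized log2 signals of miR-302c were 9.57, 9.57 and 9.49 with Activin A and 6.84, 6.72 and 7.1 without, a difference of 2.66 ± 0.093 (SE), adjusted p = 2.25e-08. Every array with Activin A lay above every array without it. miR-302b read 10.16, 10.27 and 10.47 with Activin A and 4.37, 8.18 and 8.22 without, so the first Wnt3a array was far below its replicates. Its difference was 3.38 ± 0.85 (SE), adjusted p = 0.0105, and 2.1 (adjusted p = 5.12e-07) without that array. miR-302a* showed the largest difference of the cluster, 4.0 ± 0.26 (SE), adjusted p = 1.58e-06, from 5.74, 5.81 and 5.71 with Activin A and 1.0, 2.02 and 2.25 without. The first of those Wnt3a values is the floor of 1, to which all lower signals were raised. miR-302a, miR-302d and miR-367 differed by 2.43 ± 0.12, 2.36 ± 0.24 and 1.83 ± 0.39. RefSeq places miR-302b, miR-302c, miR-302d and miR-367 within 1 stretch of chromosome 3, with miR-302b at chr3:127545275-127545297 and miR-367 at chr3:127545779-127545800, inside the span of the gene Larp7.

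The cluster of miR-290 to miR-295 was abundant in both groups. With Activin A, 7 of 13 tested members were higher (53.8%, against 14.6% of all tested) and 0 lower. The median log2 difference of the 13 was 1.34. miR-294, among the most abundant miRNAs of ESCs, read 13.32, 13.32 and 13.32 with Activin A and 12.48, 11.59 and 12.18 without. The difference was 1.24 ± 0.21 (SE), adjusted p = 0.00109. The value 13.32 is the highest that the normalization gives on any array, so the equal values of miR-294 mark its top rank, and its level and difference are capped there. miR-295 read 12.89, 12.89 and 12.89 with Activin A and 10.74, 11.27 and 11.13 without, a difference of 1.85 ± 0.12 (SE), adjusted p = 1.58e-06. miR-291a-3p, miR-292-3p and miR-293 differed by 1.49 ± 0.19, 1.34 ± 0.14 and 1.37 ± 0.19, and the opposite strands miR-293* and miR-294* by 2.57 ± 0.24 and 2.15 ± 0.5. The summed signal of the 14 members was 31980 to 34065 with Activin A and 11046 to 14477 without, on the linear scale. Without Wnt3a replicate 1, 10 of 13 were called higher. Among those that did not pass with all arrays, miR-290-3p differed by 0.58 ± 0.24 (adjusted p = 0.076). Under scaling to the 75th percentile of miRNAs detected on all arrays, 4 of 13 were called.

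All 5 members of the miR-200 family were higher (100%, against 14.6% of all tested). Their median log2 difference was 2.86 (2.55 without Wnt3a replicate 1). These miRNAs repress the ZEB transcription factors and so favour the epithelial state. miR-200b read 9.0, 9.07 and 9.13 with Activin A and 5.81, 6.12 and 6.39 without, a difference of 2.96 ± 0.13 (SE), adjusted p = 8.92e-08, and miR-429 read 8.18, 8.22 and 8.29 with Activin A and 5.58, 4.97 and 5.33 without. The arrays of a group lay within 1 log2 unit of each other for both, and the groups were far apart. miR-200a and miR-200c differed by 2.86 ± 0.26 and 2.44 ± 0.11, and miR-429 by 2.93 ± 0.13. Of the 5, miR-141 had the widest spread among the Wnt3a arrays, with 5.85, 6.03 and 5.48 with Activin A and 3.81, 4.82 and 3.02 without, and differed by 1.9 ± 0.37 (SE), adjusted p = 0.00248. RefSeq lists miR-200a, miR-200b and miR-429 on chromosome 4 (miR-200b at chr4:156055685-156055706) and miR-200c and miR-141 on chromosome 6 (miR-200c at chr6:124718324-124718346), and members of both loci were higher.

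**Figure D2:**
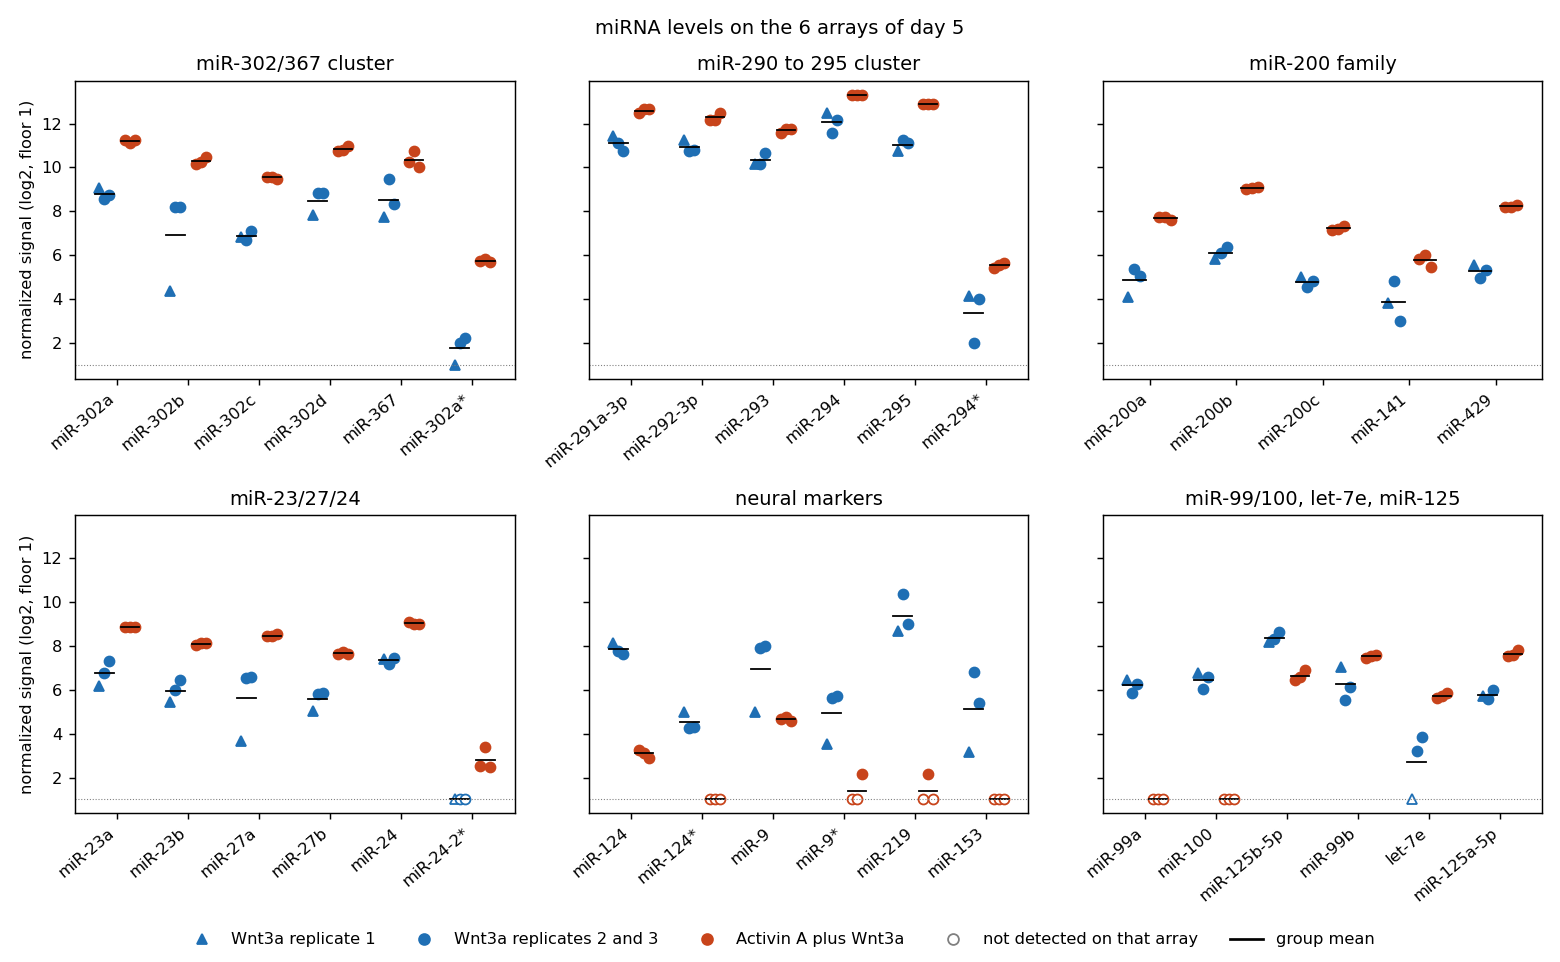
Normalized signal (log2, y axis) of miRNAs of 6 groups on each of the 6 arrays, with triangles for Wnt3a replicate 1, circles for the other arrays, hollow symbols for undetected miRNAs and bars for group means. The panels show selected members and not whole groups. Those shown of the first 4 groups lie higher with Activin A, and the neural miRNAs shown lie lower. miR-99a, miR-100 and miR-125b-5p move opposite to miR-99b, let-7e and miR-125a-5p. Of all tested members, 7 of 13 in the cluster of miR-290 to miR-295 were called higher, and 5 of 8 neural miRNAs lower.

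In the group of miR-23, miR-27 and miR-24, 6 of 6 tested members were higher (100%, against 14.6% of all tested). Their median log2 difference was 2.11 (1.83 without Wnt3a replicate 1). These come from one locus on chromosome 8 (miR-27a at chr8:84208727-84208747) and another on chromosome 13 (miR-27b at chr13:63300760-63300780), and are broadly expressed, also in mesenchymal and endothelial cells. miR-24, which both loci encode, read 9.07, 9.0 and 9.0 with Activin A and 7.38, 7.17 and 7.46 without, a difference of 1.69 ± 0.081 (SE), adjusted p = 1.52e-07. miR-27a read 8.43, 8.43 and 8.52 with Activin A and 3.69, 6.55 and 6.59 without, and its difference of 2.85 ± 0.64 fell to 1.89 (adjusted p = 4.52e-09) when the low first Wnt3a array was left out. miR-23a, miR-23b and miR-27b differed by 2.13 ± 0.23, 2.15 ± 0.2 and 2.08 ± 0.18. miR-24-2*, the opposite strand of the chromosome 8 copy of miR-24, was detected on all 3 arrays with Activin A and on 0 of 3 without, at least 3.48-fold higher (adjusted p = 0.00645). This bound is taken against the lowest signal the other arrays detected.

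The cluster of miR-183, miR-96 and miR-182, known from sensory cells, was higher in 4 of 4 tested members (100%, against 14.6% of all tested). The differences were 1.76 ± 0.28 for miR-183, 1.92 ± 0.33 for miR-183*, 1.63 ± 0.41 for miR-96 and 1.16 ± 0.24 for miR-182. All 4 were called without Wnt3a replicate 1, where miR-96 was just above the 2-fold limit at 1.02 (adjusted p = 8.48e-06). Under scaling to the 75th percentile of miRNAs detected on all arrays, 2 of 4 were called. miR-375, a miRNA of pancreatic islets and gut epithelium, showed one of the largest increases, 3.86 ± 0.32 (SE), adjusted p = 1.07e-05, from 6.12, 6.26 and 6.44 with Activin A and 3.23, 1.6 and 2.41 without. The other miRNAs of the gut, liver and pancreas list did not accompany it: of 9 on the array, 2 were tested, 1 was called, and miR-122, miR-192, miR-194, miR-215, miR-217 and miR-802 were detected on 0 of the 6 arrays. miR-205, an epithelial miRNA, and miR-210, known for its induction by low oxygen, differed by 1.89 ± 0.45 and 1.2 ± 0.16, and miR-224 by 2.3 ± 0.31. miR-489 was detected on all 3 arrays with Activin A and on 0 of 3 without, at least 6.4-fold higher (adjusted p = 1.36e-07).

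The abundant neural miRNAs were lower with Activin A. Of 12 on the array, 8 were tested, 5 were lower (62.5%, against 10.9% of all tested) and 0 were higher. The median log2 difference was -2.92 (-3.77 without Wnt3a replicate 1). With the arrays labelled Activin A in place of those labelled Activin A plus Wnt3a, 3 of 8 were lower and the median was -1.09. miR-124, the most abundant miRNA of neurons, read 3.27, 3.13 and 2.88 with Activin A and 8.11, 7.77 and 7.65 without, a difference of -4.75 ± 0.15 (SE), adjusted p = 8.9e-09. Its opposite strand, miR-124*, was detected on all 3 Wnt3a arrays and on 0 of 3 with Activin A, at least 9.28-fold lower. miR-219, known from the central nervous system and oligodendrocytes, showed the largest difference of all 350, -7.96 ± 0.5 (SE), adjusted p = 1.26e-06. It read 8.66, 10.38 and 9.0 without Activin A, and 1.0, 2.15 and 1.0 with it, where it was detected on 1 of 3 arrays. miR-153, at least 14.2-fold lower, and at least 28.2-fold without the low first Wnt3a array, was not detected with Activin A and read 3.16, 6.82 and 5.4 without it.

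miR-9 and miR-9*, the 2 strands of a hairpin encoded on chromosomes 3, 7 and 13, were also lower, and here the first Wnt3a array mattered. miR-9 read 4.66, 4.75 and 4.57 with Activin A and 4.97, 7.88 and 7.98 without, so that array lay close to the arrays with Activin A while its replicates lay more than 3 log2 units above them. The difference was -2.28 ± 0.66 (SE), adjusted p = 0.0203, and -3.27 (adjusted p = 3.16e-09) without that array. miR-9* differed by -3.56 ± 0.54 (SE), adjusted p = 0.000554, and by -4.27 (adjusted p = 5.05e-06) without that array. With the arrays labelled Activin A in place of those with both factors neither was called, at -1.28 for miR-9 and -0.89 for miR-9*. Of the neural miRNAs that did not pass, miR-129-3p differed by -0.4 ± 0.18 (adjusted p = 0.0985), miR-128 by 0.045 ± 0.16 (adjusted p = 0.875), and miR-7b was at the floor on all 6 arrays. The summed signal of the 12 was 83.5 to 87.8 with Activin A and 787 to 1990 without, on the linear scale.

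Families of miR-99 with miR-100, let-7 and miR-125 are encoded together at several loci, and their members moved in opposite directions. miR-99a and miR-100 were detected on all 3 Wnt3a arrays and on 0 of 3 arrays with Activin A. Without Activin A, miR-100 read 6.76, 6.03 and 6.58 and miR-99a read 6.44, 5.87 and 6.28. They were at least 35.7-fold and 29.9-fold lower with Activin A, the 2 largest bounds in the comparison (adjusted p = 6.36e-09 and 1.74e-09). miR-125b-5p, encoded beside each of them, read 6.46, 6.59 and 6.88 with Activin A and 8.18, 8.32 and 8.61 without, a difference of -1.73 ± 0.14 (SE), adjusted p = 8.55e-06. In contrast, the 3 miRNAs of chromosome 17 inside the span of the gene Spaca6, miR-99b at chr17:17830194-17830215, let-7e at chr17:17830366-17830387 and miR-125a-5p at chr17:17830817-17830840, were all higher.

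miR-125a-5p read 7.54, 7.58 and 7.82 with Activin A and 5.71, 5.55 and 5.97 without, a difference of 1.9 ± 0.12 (SE), adjusted p = 1.26e-06. let-7e read 5.63, 5.72 and 5.83 with Activin A and 1.0, 3.2 and 3.86 without, and the first Wnt3a array did not detect it. Its difference was 3.04 ± 0.58 (SE), adjusted p = 0.00234, and 2.2 (adjusted p = 1.75e-05) without that array. miR-99b read 7.43, 7.54 and 7.6 with Activin A and 7.05, 5.53 and 6.14 without, and there the first Wnt3a array was the highest of its group. The difference was 1.28 ± 0.3 (SE), adjusted p = 0.00725, and 1.69 (adjusted p = 2.33e-05) without that array. miR-99a and miR-99b share their seed and differ at 4 of 22 bases. Over the let-7 family, 2 of 6 tested members (33.3%, against 14.6% of all tested) were called higher and 0 lower. let-7c, encoded next to miR-99a, was one of them at 1.46 ± 0.47 (SE), adjusted p = 0.0311, a call that did not hold without Wnt3a replicate 1, at 0.9 (adjusted p = 0.0473).

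The miR-196 pair, which lies in the Hox clusters, was higher, and miR-196b showed the largest fitted increase of all 350. miR-196b read 5.76, 5.78 and 5.74 with Activin A and 1.1, 1.0 and 1.04 without, a difference of 4.71 ± 0.067 (SE), adjusted p = 3.33e-11. The Wnt3a values are at or just above the floor, so this difference is limited by the floor. miR-196a read 4.84, 4.81 and 4.81 with Activin A and was detected on 0 of 3 arrays without, at least 14.1-fold higher (adjusted p = 2.39e-08). These values were unchanged in sign and call without Wnt3a replicate 1, at 4.74 and 3.82, and were smaller with the arrays labelled Activin A in place of those with both factors, at 2.97 and 1.31. miR-10a, another Hox cluster miRNA, fell: it read 2.63, 2.67 and 2.74 with Activin A and 4.64, 5.83 and 6.4 without, a difference of -2.94 ± 0.36 (SE), adjusted p = 0.000142. RefSeq places miR-10a at chr11:96317186-96317208 and one of the 2 copies of miR-196a at chr11:96265187-96265208, so a lower and a higher miRNA lie in the same cluster.

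Of the miR-181 family, 2 of 5 tested were lower (40%, against 10.9% of all tested) and 0 higher. Of the tested, miR-181a, miR-181b, miR-181c and miR-181d share 1 seed. The other was the opposite strand miR-181a-1*, not called at -0.45 ± 0.3 (SE). The difference between members was not tested. miR-181a and miR-181b, encoded as pairs on chromosomes 1 and 2, were lower: miR-181b read 4.68, 4.57 and 4.26 with Activin A and 7.33, 6.19 and 6.61 without, a difference of -2.2 ± 0.26 (SE), adjusted p = 9.91e-05, and miR-181a differed by -3.44 ± 0.49 (SE), adjusted p = 0.000368. miR-181c and miR-181d, encoded together on chromosome 8, did not pass the threshold, at 0.75 ± 0.14 (SE), adjusted p = 0.00214 and 0.24 ± 0.26 (SE), adjusted p = 0.513. The value of miR-181c passed on p and not on size, and that of miR-181d turned to -0.063 under scaling to the 75th percentile of miRNAs detected on all arrays. miR-193, detected on 0 of 3 arrays with Activin A, read 4.43, 5.1 and 4.07 without it and was at least 9.43-fold lower, and miR-344, also undetected with Activin A, was at least 5.41-fold lower.

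**Figure D3:**
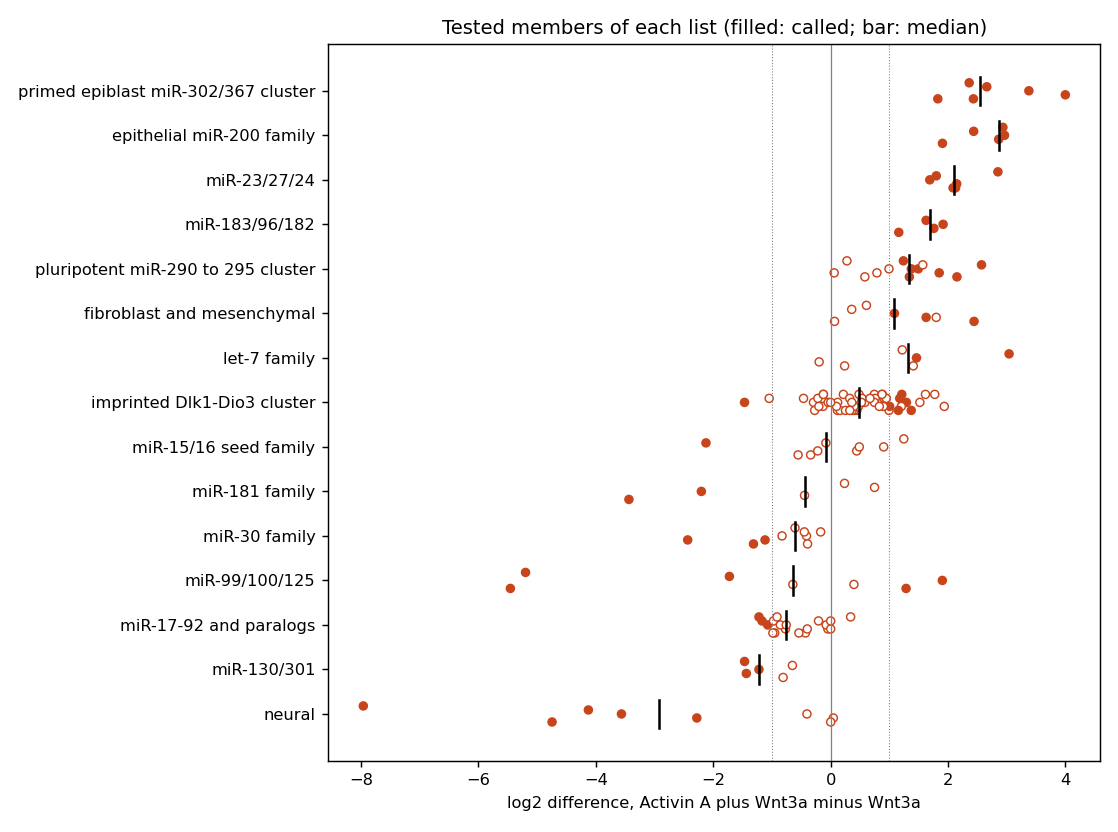
Log2 difference of each tested member of 15 lists (x axis), filled where called and hollow where not, with a bar at the median and dotted lines at a 2-fold difference. The top 4 lists lie to the right, the bottom 3 lie mostly to the left, and the list with miR-99a, miR-100 and miR-125b-5p lies on both sides.

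Members of several other families were lower by smaller amounts. In the miR-17-92 cluster with its paralogs, which promotes proliferation, 3 of 19 tested members (15.8%) were lower, near the 10.9% of all miRNAs tested, 0 were higher and the median log2 difference was -0.76. miR-19b read 11.75, 11.59 and 11.59 with Activin A and 12.64, 12.89 and 12.89 without, a difference of -1.17 ± 0.15 (SE), adjusted p = 0.000171, and of -0.53 with the arrays labelled Activin A in place of those with both factors. miR-17 differed by -1.07 ± 0.14 (SE), adjusted p = 0.000171, and by -0.89 (adjusted p = 1.51e-06) without Wnt3a replicate 1, which is no longer more than 2-fold. miR-20a overlapped between the groups through that array, with 11.13, 10.64 and 10.81 with Activin A and 11.13, 12.48 and 12.64 without, and differed by -1.22 ± 0.34 (SE), adjusted p = 0.0172. Its difference without that array was -1.7 (adjusted p = 1.12e-05). Without it, 6 of 18 were lower, with miR-18a, miR-19a, miR-20a* and miR-92a gained. Scaled to the 75th percentile of every miRNA on the array, 0 of 19 passed.

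In the family of miR-130 and miR-301, 3 of 5 were lower (60%, against 10.9% of all tested), with a median of -1.22. miR-130b read 8.22, 8.29 and 8.36 with Activin A and 10.47, 9.22 and 9.49 without, a difference of -1.44 ± 0.27 (SE), adjusted p = 0.00199, and miR-301b and miR-130b* differed by -1.47 ± 0.23 and -1.22 ± 0.28. In the miR-30 family, 3 of 9 were lower (33.3%), with a median of -0.61. Of these, miR-30a, miR-30a* and miR-30d differed by -1.32 ± 0.12, -2.44 ± 0.31 and -1.12 ± 0.23. miR-30d was not called without Wnt3a replicate 1, at -0.78 (adjusted p = 4.4e-06). miR-335-5p, from the imprinted gene Mest, differed by -1.23 ± 0.27 (SE), adjusted p = 0.00502. The family of miR-15 and miR-16 was counted with opposite strands and with miR-503, whose seed AGCAGCG is not the AGCAGCA of miR-322. Of these, 1 of 9 tested was lower (11.1%), near the 10.9% of all tested. That member, miR-503, read 3.34, 3.1 and 2.91 with Activin A and 5.29, 5.3 and 5.14 without, a difference of -2.12 ± 0.13 (SE), adjusted p = 1.26e-06. miR-322, its neighbour on the X chromosome, read 6.59, 6.66 and 6.76 with Activin A and 5.85, 8.01 and 7.82 without. It was not called with all arrays, at -0.56 ± 0.46 (SE), adjusted p = 0.374, and was called without the low first Wnt3a array, at -1.24 (adjusted p = 1.11e-06).

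Of the remaining named lower miRNAs, miR-685 and miR-494 differed by -1.72 ± 0.33 (SE), adjusted p = 0.0024, and -1.47 ± 0.41 (SE), adjusted p = 0.0178. miR-494 was highest on the first Wnt3a array, with 10.98, 10.47 and 10.64 with Activin A and 13.32, 11.43 and 11.75 without, and without that array it was -0.89 (adjusted p = 0.00195). Smaller families showed few calls. In the family of miR-148 and miR-152, 1 of 3 was higher (33.3%, against 14.6% of all tested). This was miR-152 at 1.0 ± 0.11 (SE), adjusted p = 9.13e-05. Without Wnt3a replicate 1, 0 of 3 were called. Of miR-221 and miR-222, 0 of 2 were called, of the miR-26 family 0 of 2, of the miR-29 family 0 of 3 and of miR-34 with miR-449 0 of 3. In the rodent repeat cluster of miR-297, miR-466, miR-467 and miR-669, 0 of 21 were called, with a median of 0.17 that turned to -0.14 without Wnt3a replicate 1.

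The markers of other cells that the cultures could hold were low or absent in part. Of 6 muscle miRNAs, 2 were tested and 0 called, and miR-1, miR-206, miR-208a and miR-208b were detected on 0 of the 6 arrays. Of 10 blood and endothelial miRNAs, 3 were tested and 0 called, with a summed signal of 56.8 to 65.6 with Activin A and 39.3 to 47.3 without, and miR-451, miR-144, miR-150 and miR-146a were detected on 0 of the 6 arrays. Of 8 fibroblast and mesenchymal miRNAs, as of feeder cells, 7 were tested and 3 were higher (42.9%, against 14.6% of all tested). These were miR-143 at 2.44 ± 0.21, miR-31 at 1.63 ± 0.14 and miR-199a-5p at 1.09 ± 0.19. Without Wnt3a replicate 1, 2 of 7 were higher, since miR-199a-5p was at 0.87 (adjusted p = 0.00114). It also turned to -0.016 under scaling to the 75th percentile of miRNAs detected on all arrays, where 1 of 7 was called. The summed signal of the 8, most of it miR-21, was 1572 to 1934 with Activin A and 945 to 1579 without, and the part of such cells in the results was not tested.

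Of the imprinted Dlk1-Dio3 cluster on chromosome 12, 54 of 76 miRNAs were tested, 6 were higher (11.1%, against 14.6% of all tested) and 1, miR-494, was lower (1.85%, against 10.9%), with a median log2 difference of 0.48. Of the 6, miR-154*, miR-376a*, miR-376b* and miR-495 were lost without Wnt3a replicate 1, as was miR-494, and miR-433 and miR-433* were gained. After scaling to the 75th percentile of miRNAs detected on all arrays, 0 were higher and 4 lower, so the direction of the calls turned with the scaling, although the median stayed above 0 at 0.17. Of 51 opposite strands tested, 9 (17.6%) were higher and 5 (9.80%) lower with all arrays, near the 14.6% and 10.9% of all tested, and 5 and 12 after scaling to the 75th percentile of miRNAs detected on all arrays. Without Wnt3a replicate 1 the call of miR-135a* was lost besides those of miR-154*, miR-376a* and miR-376b*, and those of miR-20a*, miR-295*, miR-433* and miR-877* were gained.

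Of the 6 miRNAs that the study pooled for overexpression, 3 were higher with Activin A (50%, against 14.6% of all tested). These were miR-196a, miR-196b and let-7e, with the values above. miR-181c, miR-222 and miR-338-5p were not called, at 0.75 ± 0.14, 0.39 ± 0.45 and 1.03 ± 0.48. Without Wnt3a replicate 1, miR-222 and miR-338-5p were called too, at 1.03 (adjusted p = 0.0014) and 1.65 (adjusted p = 0.00155). On all arrays the first Wnt3a value of each lay above its replicates, with 4.75, 2.57 and 3.13 for miR-222 and 2.95, 1.0 and 1.19 for miR-338-5p. After scaling to the 75th percentile of miRNAs detected on all arrays, these values turned to -0.036 and -0.13. The study drew this pool from miRNAs it had identified in its own experiments, so the count is not independent evidence of a direction.

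Leaving out Wnt3a replicate 1 removed 16 calls and added 18. The gained call with the smallest adjusted p was miR-135a, which read 4.99, 5.07 and 5.16 with Activin A and 3.93, 6.93 and 7.17 without and moved from -0.94 ± 0.69 (SE), adjusted p = 0.314 to -1.98 (adjusted p = 3.39e-07). miR-340-3p, miR-582-5p and miR-706 moved from -0.16, -0.99 and 0.093 to -1.18, -1.49 and 1.47. In miR-706 the first Wnt3a array read 5.12, 1.0 and 1.0, in that order with its replicates, and the latter were at the floor. miR-292-5p, miR-291a-5p and miR-20a* were gained at 1.18, 2.34 and -1.31. Over the 89 calls, the first Wnt3a array lay farther from the other group than both its replicates in 44, nearer in 28 and between them in 17. The calls were made with that array in the fit, which favours values far from the other group. The same split over all tested miRNAs was not counted.

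That array's deviation went with base composition. Over 232 miRNAs detected on all 6 arrays and with a GC content, which was had for 305 of 350 tested (87.1%), its log2 deviation from the mean of its replicates had a Pearson r of 0.50 and a Spearman rho of 0.54 with the GC content. These are values across miRNAs of 1 library, given as a description. Where no sequence had the name of the strand, the GC content was that of the listed arms of its hairpin. Both strands of a hairpin can therefore share a value, as miR-183 and miR-183* do at 43.2%. In the 58 miRNAs with the lowest GC content (median 39.3%), the median deviation was -0.93, and in the 58 with the highest (median 62.5%) it was 1.01. The median difference between the groups was 0.22 in the former and -0.43 in the latter with all arrays, and 0.0099 and -0.033 without that array. The part of base composition in single results was not tested.

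**Figure D4:**
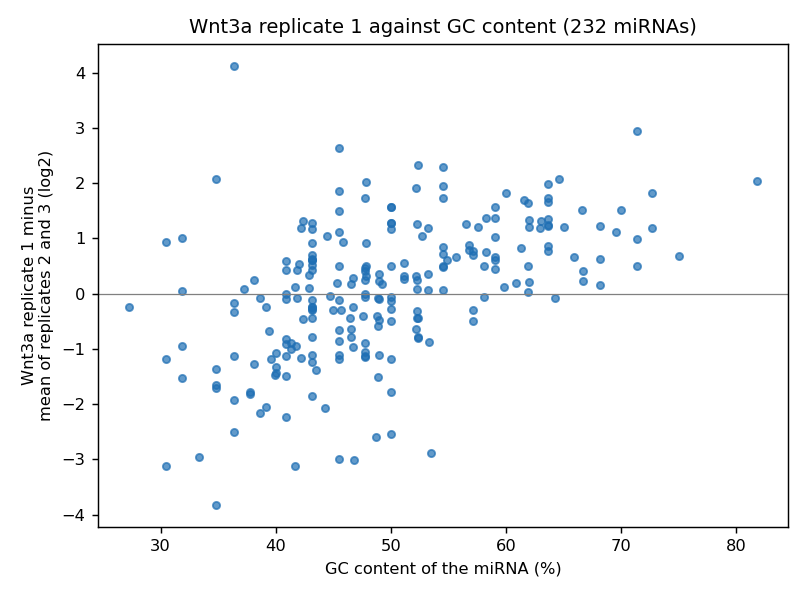
Deviation of Wnt3a replicate 1 from the mean of its replicates (log2, y axis) against GC content in percent (x axis), 1 point for each of 232 miRNAs. For many points the GC content is that of the arms of the hairpin, so both strands can share a value. Points run from below 0 at low GC content to above 0 at high GC content.

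Whether Activin A acted differently with and without Wnt3a was tested as an interaction over the 12 arrays of day 5, and 7 of 358 miRNAs (1.96%) passed, 4 positive and 3 negative, with 47 at an unadjusted p under 0.05. With 1 array left out at a time the count ran from 2 to 21, the highest without Wnt3a replicate 1. miR-196a read 2.25, 2.02 and 2.67 on the arrays with Activin A alone, and was undetected on the 3 control arrays. Its interaction was 2.51 ± 0.19 (SE), adjusted p = 6.83e-05. miR-196b read 3.99, 3.93 and 4.13 with Activin A alone, and its interaction was 1.7 ± 0.08 (SE), adjusted p = 2.2e-06. Both were thus higher with the 2 factors than with Activin A alone on every array, while the control and Wnt3a values were at or near the floor. The control arrays and Activin A replicates 1 and 2 lay on another slide than the other day 5 arrays, so slide and group are mixed here. With slide as a block the interactions were 2.69 for miR-196a and 1.75 for miR-196b, where only Activin A replicate 3 links the slides. With the labels of the 2 Activin A groups exchanged, as in the series matrix, the interactions were -2.51 and -1.79, and under scaling to the 75th percentile of miRNAs detected on all arrays that of miR-196b was -0.26 (adjusted p = 0.469). miR-19b read 12.64, 12.18 and 12.18 on the control arrays and 12.18, 12.18 and 12.48 with Activin A alone, and its interaction was -1.12 ± 0.21 (SE), adjusted p = 0.0309. For the miR-99a and miR-100 decreases the interactions were -0.012 ± 0.17 (SE), adjusted p = 1, and -0.0085 ± 0.22 (SE), adjusted p = 1. Both were at the floor in both Activin A groups, so these values rest on the Wnt3a and control arrays and cannot compare the effects. For miR-124 the interaction was -0.14 ± 0.2 (SE), adjusted p = 0.772, which does not show that the effects were alike.

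**Figure D5:**
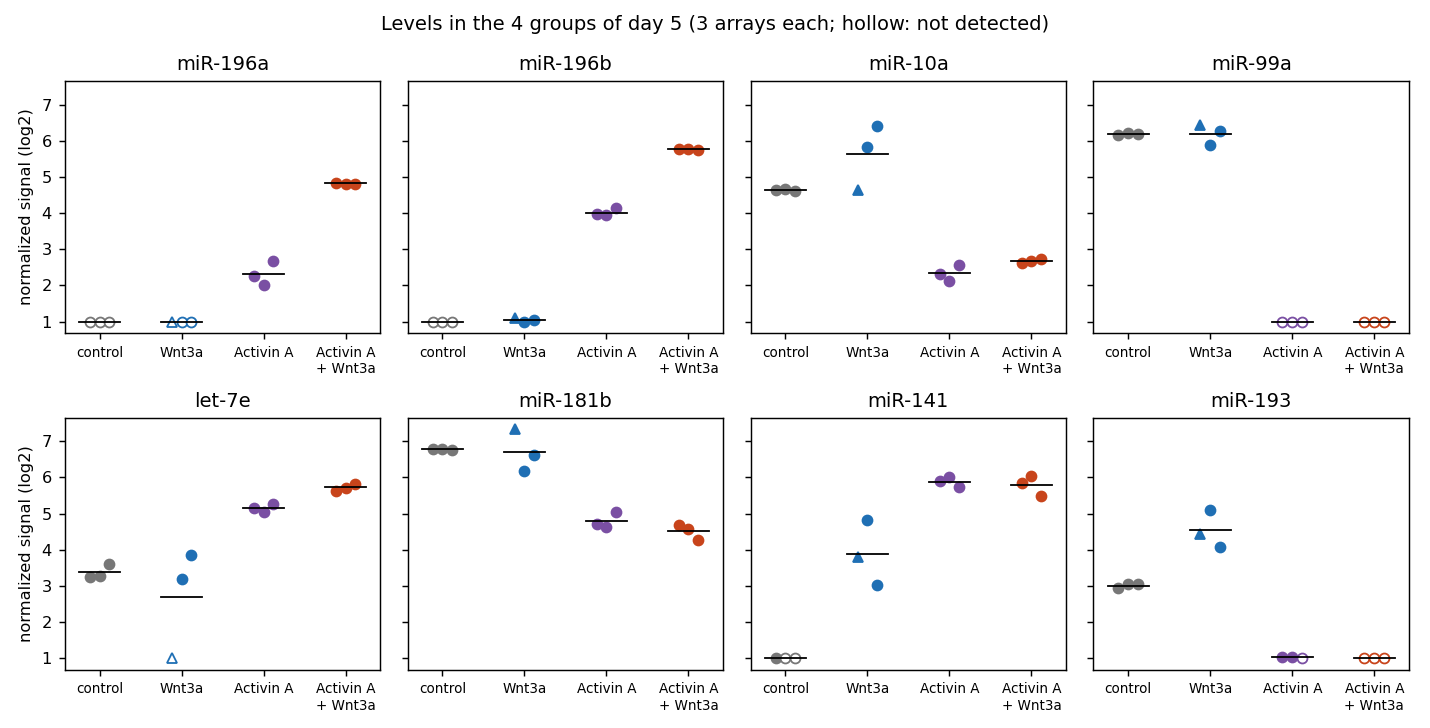
Normalized signal (log2, y axis) of 8 miRNAs on the 3 arrays of each group of day 5, with hollow symbols where not detected, a triangle for Wnt3a replicate 1 and bars for means. miR-196a and miR-196b are highest with both factors, while miR-99a is undetected wherever Activin A was given. The control arrays and Activin A replicates 1 and 2 lay on another slide than the other arrays.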

How the data were processed

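MiRNA levels came from 1-colour Agilent arrays, 1 per sample, grouped by sample title. The deposited intensity values were made by Feature Extraction, version 10.7.3.1 in the headers and 9.5.3.1 in the submitters' notes: background-subtracted total signals per miRNA, 0.1 where not detected. The deposited detection flags come from that software. The log2 values that the authors deposited in the series matrix were not used, since 18 of 39 arrays matched the column of another array best in rank order. Here, total signals were quantile normalized over 39 arrays (limma 3.58.1, R 4.3.3), raised to a floor of 2 (1 on the log2 scale) and put on the log2 scale. MiRNAs detected on at least 2 of 3 arrays of either group were tested. The 12 arrays of day 5 were fitted with limma, and p-values were adjusted by Benjamini-Hochberg over all tested. With 3 arrays against 3 there is no exact permutation p under 0.1, and the number of arrays limits the precision. The fit was tested on simulated data with 1 spread per miRNA in all groups. That test could not show what the wider spread of the Wnt3a arrays does. Where a group was undetected on all arrays, the fold is a bound, taken from the mean over its arrays of the lowest signal detected on each. GC content was that of the mature sequence of the same name, or else the mean of the listed arms of its hairpin. Where a single arm was listed, both strands took its value.

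The miRNAs named were the 10 largest increases and decreases among calls detected on all 6 arrays without overlap, up to 6 bounds in each direction, examples of each list, the 10 smallest p-values among calls gained or lost without Wnt3a replicate 1, the study's 6 pooled miRNAs and the 6 smallest interaction p-values, and further family members were named after their values were seen. Members, lists and rules were chosen with earlier results of these data known. Alternatives covered the arrays in the fit, array weights, scaling, background, floor, filter, viral probes, blocks for replicate number and slide (statmod 1.5.0) and the test; 2 were added after seeing the data.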

Additional observations from a re-analysis of the deposited data

Results flagged for a closer look

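A set of 7 miRNAs differed between the effect of Activin A with Wnt3a and its effect without Wnt3a at day 5, by limma's interaction with Benjamini-Hochberg adjustment. Positive interactions were 1.70 on the log2 scale for miR-196b, 2.51 for miR-196a, 1.5 for miR-325 and 1.43 for miR-551b. Negative ones were -2.98 for miR-141, -1.12 for miR-19b and -1.55 for miR-193. Over the other ways of processing that gave a value, miR-196a was called in the same direction in 26 of 29, miR-196b in 21 of 29, miR-141 in 15 of 29, miR-19b in 13 of 30, miR-193 in 14 of 29, miR-551b in 10 of 29 and miR-325 in 7 of 29. miR-196a and miR-196b were called in the opposite direction in 1 of these, with the labels of the Activin A groups exchanged, at -2.51 and -1.79. In miR-193, miR-325 and miR-551b both Activin A groups were at or near the floor, so the value rests on the difference between the Wnt3a and control arrays. miR-141 was detected on 1 of 3 control arrays, and miR-196a and miR-196b on 0 of 3, so their effects of Activin A alone are limited by the floor. miR-466g had an adjusted p of 0.00293 with an interaction of 0.93, under the 2-fold limit, and its Wnt3a values were at the floor.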

How the results depend on the processing

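The count of 89 called miRNAs was 64 to 117 under all alternatives but one: with normexp background correction and an offset of 50, which compresses low signals, it was 23, of which 22 were among the 89. Under normexp, 59 of 104 named miRNAs changed in call or sign. The higher calls were 5 of 6 for miR-302 and miR-367, 4 of 5 for the miR-200 family and 3 of 13 for miR-290 to miR-295. Of the neural miRNAs 2 of 8 were lower, and miR-375 was not called. Leaving out each array gave 80 to 117. The 6 arrays alone gave 64, and 86 without Wnt3a replicate 1. The 75th percentile of miRNAs detected on all arrays gave 109, of which 34 were higher and 75 lower. The interaction count of 7 was less stable. It was 13 with all 39 arrays in one fit, 19 with array weights, 12 with the 75th percentile of miRNAs detected on all arrays, 3 after quantile normalization of log2 signals, 0 by limma with normexp (40 at an unadjusted p under 0.05), 4 with a floor of 8, 2 without the detection filter, 0 by limma for miRNAs detected on all arrays (32 at an unadjusted p under 0.05), 2 with slide as a block, 26 with the arrays labelled Activin A exchanged with Activin A plus Wnt3a and 24 after quantile normalization within day 5 without Wnt3a replicate 1. Leaving out each array gave 2 to 21.

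Same-numbered arrays of the 2 groups had deviations that correlated at 0.044, 0.26 and 0.18, and differently numbered arrays at -0.22 to 0.064. The main fit did not pair the arrays, and whether replicate numbers pair them was not tested. With the replicate block, 89 miRNAs were called in the comparison, 88 of them shared, and 3 in the interaction.

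Of the miRNAs named, 7 changed sign under some alternative. miR-340-3p turned to 0.34 within day 5, 0.17 with a floor of 1, and ran from -1.18 to 0.44 with 1 array left out. miR-706 ran from -0.59 to 1.47 with 1 array left out, and was -0.70 and -0.44 under the percentile scalings, -0.21 for log2 quantiles, -0.056 with normexp, -0.71 with a floor of 8 and -0.28 with the exchanged arrays. miR-222 ran from -0.067 to 1.03 with 1 array left out and was -0.036 with the percentile of detected miRNAs, where miR-338-5p was -0.13, miR-199a-5p -0.016 and miR-181d -0.063. miR-181d ran from -0.019 to 0.58 with 1 array left out and was -0.073 with the exchanged arrays, where miR-199a-5p was -0.81. miR-335-3p ran from -0.93 to 0.11 with 1 array left out and was 0.041 with the percentile over all miRNAs. The cause of these changes was not tested. The series matrix was not run, since 18 of 39 arrays matched a column of another name best in rank order. The 6 arrays alone give no interaction. Signals at the floor limit differences of dim miRNAs.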
